A study of Mus musculus with 10 samples.

Results

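Immediate early genes were followed in ribosome footprints of the developing mouse neocortex. The 10 members, Fos, Fosb, Jun, Junb, Egr1, Arc, Npas4, Nr4a1, Ier2 and Klf6, were taken by gene symbol, and all 10 were found among the 22373 genes of the count table. Footprints are the mRNA fragments that ribosomes protect from nuclease, so a change in footprints can come from the amount of the mRNA or from how many ribosomes it carries. The tissue came from wild-type CD-1 mice at 4 embryonic stages (E12.5, E14, E15.5 and E17, in days after mating) and on the day of birth (P0), with 2 libraries at each stage. Every lysate was digested with RNase T1 and RNase A, no group carried a transgene or drug treatment, and each library was a pool of brains of both sexes. The labels separate the stages by age alone. A replicate is a pool rather than an animal, and per the study's methods fewer brains went into a pool at later stages.

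Immediate early genes are transcribed within minutes of a stimulus, without prior protein synthesis, into mRNAs that are usually short-lived. In neurons the stimulus is calcium entry during activity, and in dividing cells it can be a growth factor. Fos and Jun family proteins pair to form the AP-1 transcription factor, Egr1, Npas4, Nr4a1 and Klf6 are other transcription factors, Ier2 is a nuclear protein, and Arc acts at synapses in the removal of glutamate receptors from the surface. Calcium and cyclic AMP reach several of these genes through CREB, which binds the cyclic AMP response element.

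Promoter sequence from RefSeq was searched for 7 of the 10 members, namely Fos, Fosb, Jun, Junb, Npas4, Nr4a1 and Klf6. Each window ran from 250 bases before to 50 after the gene start (GRCm38). Windows of Egr1, Arc and Ier2 were not searched, so the counts below do not cover these genes. The core letters TGACG of the CREB element, searched on both strands, were present in 5 of these 7 windows and in 20.8% of 32851 promoters of the same length. They were absent from the windows of Jun and Klf6, which says only that these letters are not there. The match nearest to the start is shown for each of the 5 genes, since these include the members with the fewest footprints. Capitals mark the match, and in Nr4a1 it lies on the opposite strand.
Fos: agttccgcccagTGACGtaggaagtccat
Fosb: tggagttgcgggTGACGcaagcgcggggg
Junb: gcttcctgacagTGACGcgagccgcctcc
Npas4: gacgtcacgggaTGACGtcggaagtctgg
Nr4a1: cccctctccatgCGTCAcggagcgcttaa
These windows lie at chr12:85473812-85473840 (plus strand), chr7:19310089-19310117 (minus), chr8:84978838-84978866 (minus), chr19:4990124-4990152 (minus) and chr15:101266794-101266822 (plus). The matches begin at positions -66, -60, -106, -169 and -40 from the gene start. The palindrome TGACGTCA, the AP-1 site TGANTCA and the CArG box, which binds serum response factor, were each found in 0 of the 7 windows, against 1.79%, 7.81% and 1.63% of all promoters. The first of these contains TGACG. Sites outside the windows were not searched, so a count of 0 does not say that a gene lacks the site. The letters TATAAA were found in 2 of the 7, Fos and Junb, against 13.6% of all promoters.

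Libraries held between 7544404 counts, in P0 replicate 1, and 36129988 counts. The spread between replicates was widest at P0, where the log2 ratio of replicate 1 to replicate 2 had an SD of 0.70 over the 13484 genes tested, against 0.21 to 0.42 in the embryonic stages. The members' called changes to P0 from E12.5 are therefore also given without either of its libraries. Summed markers of neocortex were between 736 and 1124 CPM (counts relative to the scaled library size, on a common scale) in all libraries, with 3 of 10 called higher and 5 lower from E12.5 to P0. Markers of neurons summed to between 2114 and 2156 CPM at E12.5 and to between 8051 and 9008 CPM at P0, with 8 of 10 called higher and 1 lower. Markers of neural progenitors lay between 2041 and 2472 CPM before birth and between 1436 and 1974 at P0, with 8 of 10 called lower and 2 higher.

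The members differed widely in how well they were measured. The mean count over the 10 libraries was 823 for Jun, 460 for Klf6 and 345 for Ier2. It was 53.0 for Egr1, 45.5 for Arc and 44.6 for Junb, and under 10 for Fos (9.30), Nr4a1 (6.20), Npas4 (3.10) and Fosb (1.40). The filter of 32 footprints summed over a stage kept 7 members and left out Fosb, Npas4 and Nr4a1. Fos passed through P0 alone, where it had 45 footprints against 8 to 15 at the other stages, so a high value at P0 was a condition of its entry. Its rise is described without a test, and Fos is left out of the counts of members called. Coding lengths were not used here, so levels are compared within a gene and not between genes.

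**Figure D1:**
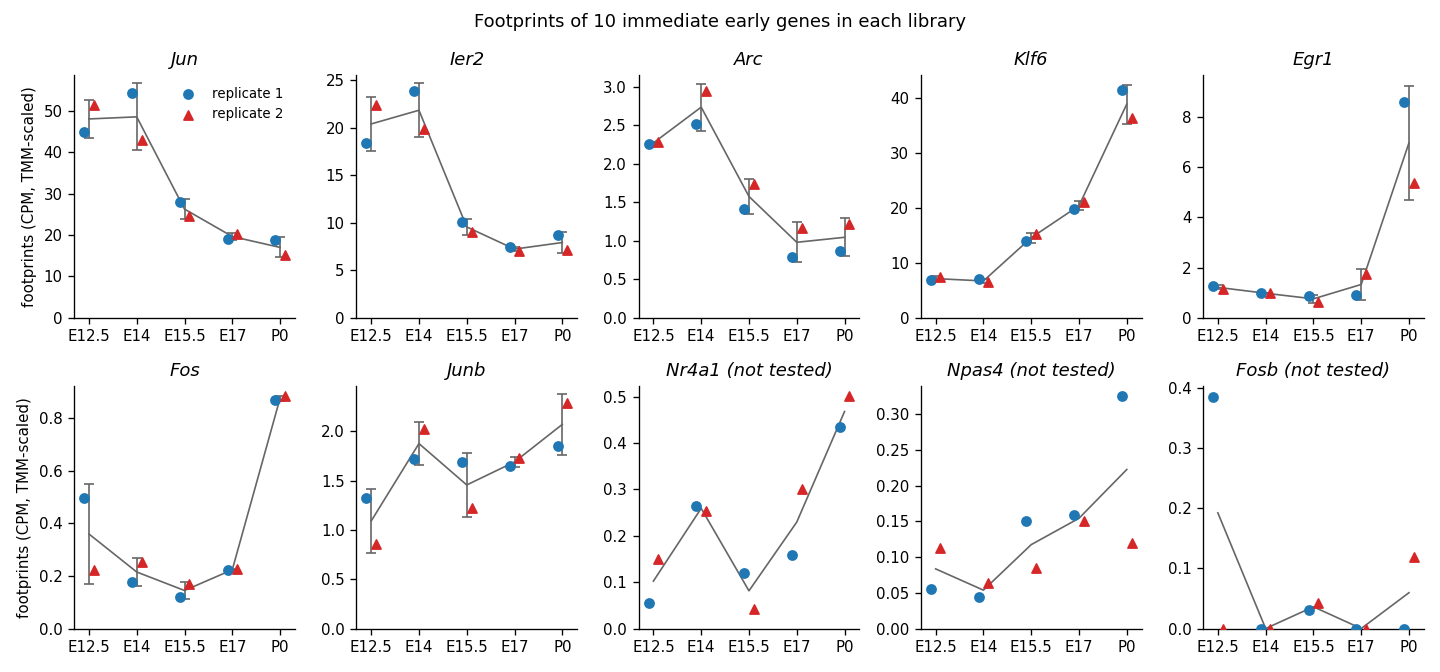
CPM of each member (vertical axes, each from 0) in the 10 libraries by stage (horizontal axes), with circles for replicate 1 and triangles for replicate 2. Lines join stage means, and bars show the SD (n = 2) for the 7 genes tested. Jun, Ier2 and Arc are high at E12.5 and E14 and Klf6 and Egr1 are highest at P0.

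Jun, the main partner of Fos proteins in AP-1, was high in the early cortex and low later. The E12.5 libraries held 44.8 and 51.3 CPM, those of E14 54.2 and 42.8, those of E15.5 28.0 and 24.5, those of E17 19.0 and 20.2, and those of P0 18.7 and 15.3. All 4 libraries of E12.5 and E14 lay above all 6 later ones. How many of all genes separate in such a way was not counted, here or for the other members, so these splits are descriptions. From E14 to E15.5, 19.6% of all genes were called lower. The fitted log2 fold change from E14 to E15.5 was -0.87, with an SE of 0.15 (limma-voom adjusted p = 0.00301). Over the whole span to P0 the change was -1.53 ± 0.16 (adjusted p = 7.08e-05). Leaving out P0 replicate 1 gave -1.65, and leaving out replicate 2 gave -1.32.

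Ier2 followed a similar course. The pairs of libraries, in stage order, read 18.4 and 22.4 CPM, 23.9 and 19.8, 10.1 and 8.99, 7.40 and 7.06, and 8.70 and 7.14. As for Jun, the 4 earliest libraries did not overlap the 6 later ones, and E17 and P0 overlapped. The change from E14 to E15.5 was -1.18 ± 0.15 (limma-voom adjusted p = 0.000736), and over the whole span it was -1.41 ± 0.16 (adjusted p = 0.000124). Without P0 replicate 1 the latter was -1.51, and without replicate 2 it was -1.19.

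Arc was measured at lower counts, with pairs of 2.26 and 2.28 CPM, 2.52 and 2.95, 1.42 and 1.73, 0.794 and 1.16, and 0.870 and 1.22 in stage order. The 4 earliest libraries were again above all later ones, although this gene is best known from synapses of mature neurons. The change was -0.82 ± 0.20 from E14 to E15.5 (limma-voom adjusted p = 0.0137) and -0.97 ± 0.25 over the whole span (adjusted p = 0.00869). The latter was -0.89 and -1.28 when P0 replicates 1 and 2 were left out in turn. The first call was lost without E14 replicate 2 (-0.71, adjusted p = 0.0929) or E15.5 replicate 1 (-0.66, adjusted p = 0.130), and under total-count scaling the changes were -0.53 and -0.45, with neither called.

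Klf6, a zinc finger transcription factor of the Krüppel-like family, moved the opposite way. In stage order its pairs read 6.82 and 7.44 CPM, 6.98 and 6.43, 13.9 and 15.2, 19.8 and 21.0, and 41.4 and 36.4. From E14 onward each stage lay wholly above the one before it, while E12.5 and E14 overlapped. The step from E14 to E15.5 was 1.12 ± 0.12 (limma-voom adjusted p = 0.000364), and the following steps were 0.49 ± 0.11 (adjusted p = 0.0356) and 0.92 ± 0.11 (adjusted p = 0.00203). The whole span gave 2.43 ± 0.12 (adjusted p = 1.44e-06), or 2.35 without P0 replicate 1 and 2.56 without replicate 2. The call from E15.5 to E17 was lost when any library of E12.5, E14, E15.5 or E17 was left out, with changes of 0.42 to 0.54. With a library of E15.5 or E17 left out, hardly any gene of the whole table was called in this step.

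Egr1, a zinc finger factor widely used as a mark of recently active neurons, was low before birth and high at P0. Its counts in replicates 1 and 2, in stage order, were 23 and 31, 22 and 31, 29 and 15, 28 and 47, and 79 and 225. On the CPM scale the P0 libraries were at 8.59 and 5.37, and the 8 embryonic libraries ranged from 0.633 to 1.76. The rise from E17 to P0 was 2.35 ± 0.33 (limma-voom adjusted p = 0.0033), that is 5.08-fold. Leaving out P0 replicate 1 gave 2.13, and leaving out replicate 2 gave 2.84. Against E12.5 the rise was 2.36 ± 0.36 (adjusted p = 0.000593), and the same omissions gave 2.14 and 2.86.

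Fos rested on few footprints, with counts of 9 and 6, 4 and 8, 4 and 4, 7 and 6, and 8 and 37 in stage order. In CPM both P0 libraries were above the other 8, with a mean of 0.877 ± 0.0091 (SD, n = 2) against 0.224 ± 0.0021 at E17. The ratio of summed, scaled counts between P0 and E12.5 was 2.64. The fitted log2 fold change over that span was 1.45, and 0.78 without E12.5 replicate 2. Both are given here without an interval, because a high value at P0 let the gene into the fit. Without P0 replicate 2 the gene failed the filter.

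Junb, an AP-1 subunit related to Jun, ranged from 0.860 to 2.29 CPM over the libraries. Its pairs were 1.32 and 0.860 CPM, 1.72 and 2.03, 1.69 and 1.22, 1.65 and 1.73, and 1.85 and 2.29 in stage order. No step between adjacent stages was called, and the change from E12.5 to P0 was 1.08 ± 0.27 (limma-voom adjusted p = 0.00803). That call was lost without E12.5 replicate 2 (0.71, adjusted p = 0.105) or P0 replicate 2 (0.90, adjusted p = 0.0831), and the change was 1.15 without P0 replicate 1.

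The other three members were near the limit of detection. Fosb, a further AP-1 subunit, had counts of 7 and 0, 0 and 0, 1 and 1, 0 and 0, and 0 and 5 in stage order. A count of 0 allows up to 3 counts, which is between 0.0951 and 0.326 CPM in the libraries where Fosb had none. Npas4, a neuron-restricted factor induced by calcium entry, had between 1 and 5 counts in every library. Nr4a1, an orphan nuclear receptor, had 1 and 4, 6 and 8, 4 and 1, 5 and 8, and 4 and 21 counts in stage order.

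Ratios of summed, scaled counts were formed for these 3 genes between P0 and E12.5, with exact binomial 95% intervals that cover counting error only. The ratio was 4.40 for Nr4a1 (1.65 to 14.7), 1.76 for Npas4 (0.471 to 7.98) and 0.628 for Fosb (0.157 to 2.30). For Npas4 and Fosb no difference was detectable at this depth.

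Side by side, members were called in both directions. From E12.5 to E14, 0 of the 6 members counted (the 7 tested without Fos) were called with limma-voom (background 0.497% of genes higher and 0.141% lower). Junb alone had an unadjusted p under 0.05 (1 member), and edgeR also called 0. DESeq2 gave no adjusted p to 7 members, against 3 with edgeR, which are those left out by the filter. Junb and Egr1 were among the 7 and could not be called, so the 0 calls of DESeq2 say nothing about them. From E14 to E15.5, 1 member was called higher and 3 lower, where 16.5% of all genes were higher and 19.6% lower. From E15.5 to E17, 1 was higher and 0 were lower (background 5.61% and 3.43%). Over that step 4 members had an unadjusted p under 0.05, and edgeR and DESeq2 each called 1.

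From E17 to P0, 2 of the 6 members, Egr1 and Klf6, were called higher and 0 lower, where 9.46% of genes were higher and 11.1% lower. Both edgeR and DESeq2 called the same 2, and 2 members had an unadjusted p under 0.05. From E12.5 to P0, 3 of the 6 were higher and 3 lower (background 30.1% and 32%). Across the 5 stages the F test called 6 of 6 against 63.8% of genes, with Junb nearest to the threshold (limma-voom adjusted p = 0.0462). Both edgeR and DESeq2 called 5, all but Junb. This call of Junb was also lost without a filter, with sample quality weights and when most single libraries were left out. It was kept under total-count and size-factor scaling. The median log2 fold change of the 6 members was 0.046, -0.59, -0.10, 0.33 and 0.056 in the 5 comparisons in this order, and that of all genes was between -0.023 and 0 in each.

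**Figure D2:**
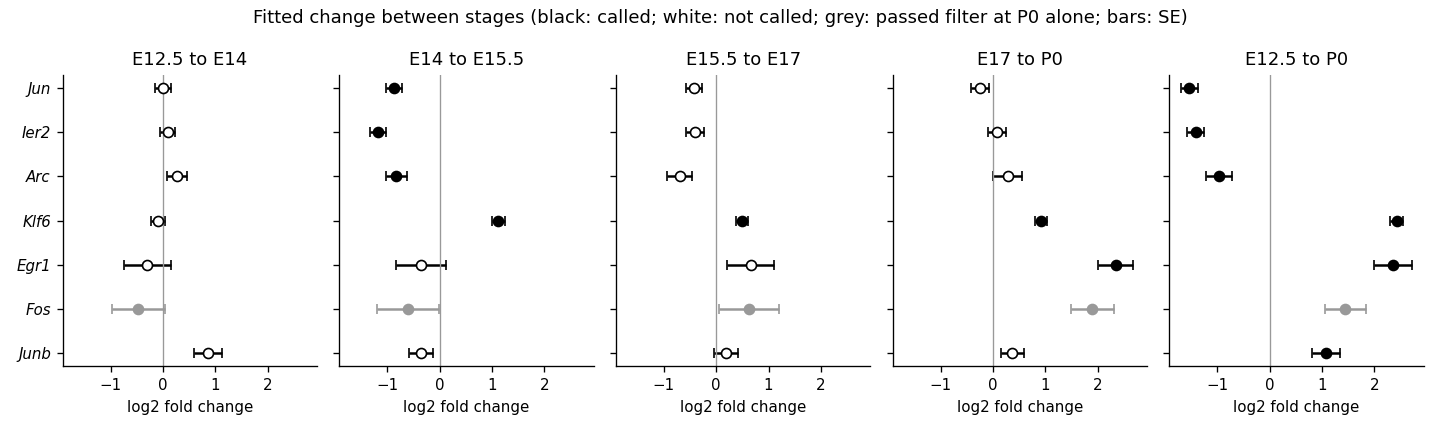
Fitted log2 fold change (horizontal axes) of the 7 tested members in 5 comparisons, with bars for the SE, black points for calls, white points for no call and grey points for Fos, which passed the filter at P0 alone. Jun, Ier2 and Arc lie left of 0 and Klf6 right of it from E14 to E15.5, and Egr1 and Klf6 lie right of 0 from E17 to P0.

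Other cell types changed over the same steps. From E14 to E15.5, summed choroid plexus markers went from 1161 to 1164 CPM down to 12.1 to 15.4 CPM, meningeal fibroblast markers from 74.9 to 83.3 down to 5.62 to 5.66, and endothelial markers from 28.8 to 38.5 down to 8.19 to 10.1. Between E12.5 and P0, 9 of 10 meningeal, 9 of 9 endothelial and 9 of 9 red blood cell markers tested were called lower. Microglial markers ranged from 20.9 to 36.5 CPM in all libraries. Ganglionic eminence and interneuron markers went from between 15.1 and 15.9 CPM at E12.5 to between 166 and 175 at P0. Several defining markers had 0 counts in at least 1 library, among them Emcn, Lum and Otx2, and none was at 0 in all. The part of these cells in the falls of Jun, Ier2 and Arc and in the rises of Klf6 and Egr1 was not tested, and in bulk tissue fewer cells of a type and less RNA per cell cannot be told apart.

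**Figure D3:**
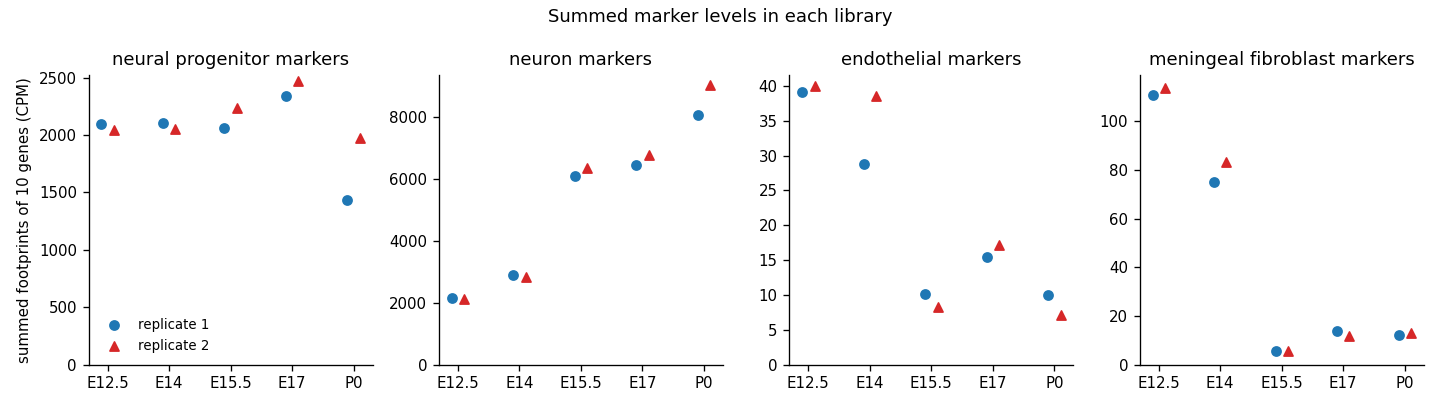
Summed CPM of 10 markers of each of 4 cell types (vertical axes, from 0) by stage, with circles for replicate 1 and triangles for replicate 2. Endothelial and meningeal markers are lower from E15.5 on than at E12.5 and E14, and neuron markers are highest at P0.

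The closest relatives of the members in the Fos, Jun, Egr and Nr4a families were looked up after the members' values were seen. Fosl2, a Fos family protein, went from 2.14 ± 0.17 CPM at E12.5 to 17.4 ± 4.9 at P0 (SD, n = 2), a change of 2.93 ± 0.24 (limma-voom adjusted p = 1.67e-05), or 2.71 and 3.33 without P0 replicates 1 and 2 in turn. Nr4a2, the orphan receptor needed for midbrain dopamine neurons and also present in deep cortical neurons, went from 10.3 ± 0.46 to 71.9 ± 4.4 CPM (2.80 ± 0.12, adjusted p = 9.29e-07). Nr4a3 went from 2.33 ± 0.25 to 15.6 ± 0.52 CPM (2.72 ± 0.17, adjusted p = 4.54e-06). Both had more footprints than Nr4a1 in every library.

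Jund, the Jun family member that is typically expressed without a stimulus, was not called (0.38 ± 0.27, limma-voom adjusted p = 0.239). Its change was -0.023 without P0 replicate 1 and 0.95, called, without P0 replicate 2. Egr3 had 0 and 1 counts at E12.5 and 20 and 38 at P0, a ratio of scaled counts of 51.0. As Egr3 passed the filter through P0 alone, this ratio is a description. Egr2 had 0 and 0 counts at E12.5 and 4 and 24 at P0. Egr4 and Fosl1 had at most 4 and 1 counts in any library.

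Of 48 other immediate early genes 43 were tested, and Egr3 and Dusp5, which passed the filter at P0 alone, are left out of the counts that follow. From E12.5 to P0, 11 of 41 (26.8%) were called higher and 14 (34.1%) lower, near the 30.1% and 32% of all genes, and the median log2 fold change was -0.17 against -0.013 over all genes. From E14 to E15.5, 9 were higher (22.0%) and 9 lower, against 16.5% and 19.6% of all genes. From E17 to P0, 8 were higher (19.5%) and 6 lower (14.6%), against 9.46% and 11.1%. From E15.5 to E17, 1 was higher and 3 were lower. From E12.5 to E14, 0 were called with limma-voom or edgeR, 2 with DESeq2, and 10 had an unadjusted p under 0.05.

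The largest falls of this list were those of Gadd45g, Btg2 and Zfp36l1. Gadd45g, a growth arrest gene, went from 70.9 ± 9.4 to 5.75 ± 0.33 CPM (SD, n = 2), Btg2, an antiproliferative gene of neurogenic progenitors, from 28.1 ± 3.7 to 2.98 ± 0.40, and Zfp36l1, which promotes decay of AU-rich mRNAs, from 82.5 ± 7.9 to 16.1 ± 4.5. Their log2 fold changes were -3.64 ± 0.18, -3.30 ± 0.16 and -2.45 ± 0.19 (limma-voom adjusted p = 1.28e-06, 1.36e-06 and 1.14e-05).

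The largest fitted rises were in Egr3, given above, Bdnf and Plk2, and that of Egr3 is a description because this gene passed the filter at P0 alone. Plk2, a kinase of synaptic scaling, went from 7.76 ± 0.075 to 69.1 ± 13 CPM (3.16 ± 0.15, limma-voom adjusted p = 1.05e-06). Bdnf, a neurotrophin, had 0 counts in E12.5 replicate 1 and 47 in replicate 2, then 23 and 132 at P0, and its change of 3.22 ± 1.22 (adjusted p = 0.0465) ranged from 0.75 to 6.76 between settings and was lost in most of them.

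A list of 32 genes that act upstream, all of them tested, holds transcription factors, coactivators and kinases and 4 channel or receptor subunits (Cacna1c, Grin1, Grin2a and Grin2b). From E12.5 to P0, 19 (59.4%) were called higher and 6 (18.8%) lower, against 30.1% and 32% of all genes, with a median log2 fold change of 0.69 against -0.013. All 4 subunits were among the 19. From E14 to E15.5, 10 were higher (31.2%) and 3 lower (9.38%), against 16.5% and 19.6% of all genes. From E17 to P0, 8 were higher (25.0%) and 4 lower, against 9.46% and 11.1%. The other 2 steps had 2 higher and 0 lower (E12.5 to E14) and 2 higher and 1 lower (E15.5 to E17). Camk2b, a subunit of a calcium-dependent kinase, went from 39.5 ± 4.3 to 1083 ± 101 CPM (SD, n = 2), Mef2c, an activity-dependent factor, from 113 ± 15 to 2777 ± 622, and Grin2b, an NMDA receptor subunit, from 2.14 ± 0.17 to 31.3 ± 11. Their log2 fold changes were 4.78 ± 0.12, 4.61 ± 0.16 and 3.78 ± 0.28 (limma-voom adjusted p = 3.74e-07, 4.84e-07 and 1.11e-05).

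Lower at P0 were Atf1, a relative of CREB, at 19.0 ± 1.4 and then 4.48 ± 0.59 CPM, and Elk3, a partner of serum response factor, at 9.54 ± 1.4 and then 2.14 ± 0.41. The changes were -2.14 ± 0.14 and -2.05 ± 0.29 (limma-voom adjusted p = 4.84e-06 and 0.00037). Crtc2, a CREB coactivator, went from 1.17 ± 0.25 to 0.444 ± 0.013 CPM (-1.37 ± 0.32, limma-voom adjusted p = 0.00604). Its call was lost with DESeq2 (DESeq2 adjusted p = 0.0585) and with sample quality weights (limma-voom adjusted p = 0.160). It was also lost without P0 replicate 2 (-1.27).

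**Figure D4:**
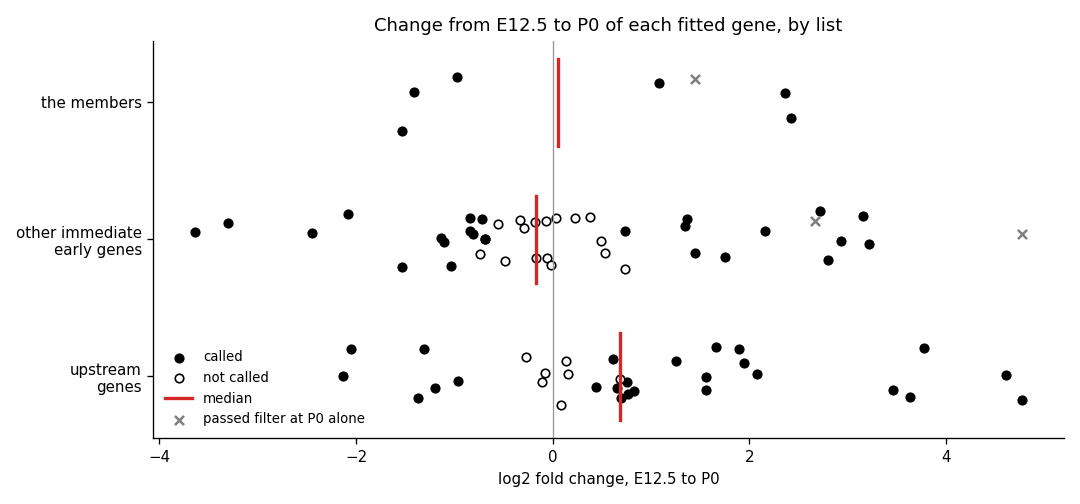
Fitted log2 fold change from E12.5 to P0 (horizontal axis) of every fitted gene of 3 lists, with filled points for calls, crosses for the 3 genes that passed the filter at P0 alone (Fos, Egr3 and Dusp5), and a line at the median of the rest. The medians are 0.056 for the members, -0.17 for the other immediate early genes and 0.69 for the upstream genes.

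Genes whose course over the 10 libraries was most like that of a member were sought among the 9214 other genes whose mean count reached 100. Jun was most like Trip6 (Pearson's r 0.997, Spearman's rho 0.988), an adaptor protein, and Sox3 (0.995 and 0.976), a progenitor transcription factor. Ier2 was most like Sox9 (0.993 and 0.952) and Nek9 (0.991 and 0.939). Klf6 was most like Vsnl1 (0.996 and 0.915), a neuronal calcium sensor, and Rgs17 (0.996 and 0.964). Jun and Ier2 were alike (0.976 and 0.903), and both ran opposite to Klf6, at -0.944 and -0.882 by Pearson's r. These are descriptions over 10 libraries that share 5 stages.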

How the data were processed

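Ribo-seq libraries of mouse neocortex, 2 per stage at 5 stages, were analysed from a table of whole-number footprint counts deposited by the authors. The study describes trimming of adapters, collapse of duplicate reads while they still carried short molecular identifiers, removal of tRNA, rRNA and snoRNA reads, and alignment of the rest with STAR (2.7.0 in the submitters' processing notes) to mouse transcripts and genome, keeping reads that match several places. It names DeepShape-prime for isoform abundances and, with length correction, tximport for counts per gene. Whether the deposited whole numbers are that output is not stated, so genes with near copies are uncertain. Of 22373 identifiers, 22274 matched a symbol, and 0 columns of per-sample values were left unused.

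A gene was kept where its footprints in the libraries of any stage summed to at least 32 (13484 genes). Counts were scaled by TMM (edgeR 4.0.16) and fitted with limma-voom (limma 3.58.1, R 4.3.3) with 1 coefficient per stage over all 10 libraries and no replicate block. Tests were two-sided, and p-values were adjusted by Benjamini-Hochberg over all genes kept. Calls needed a fold of at least 1.25 beside an adjusted p under 0.05, and the F test had no fold threshold. "Higher", "rose" and the like refer to calls. CPM used TMM-scaled totals, and errors of fitted changes are SE. Alternatives were other scalings, edgeR and DESeq2 1.42.0, no filter, library weights, a replicate block, each library left out and fits of 2 stages. The code was tested on simulated counts. With 2 pools per stage, p-values measure the spread between pools. Total counts ran from 7544404 to 36129988, and intervals and floors cover counting error only.

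Named genes were the members, the up to 3 largest called rises and falls of each companion list from E12.5 to P0, and the 2 genes most like each member with a mean of at least 100 counts, by correlation of log2(CPM + 1). The members and lists were chosen with earlier results of these data known.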

Additional observations from a re-analysis of the deposited data

How the results depend on the processing

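Of 625 values of the members' log2 fold changes over 35 results and 18 settings, 578 kept their direction and side of the threshold, 32 lost their call, 5 gained one and 10 changed sign. The sign changes were in values near 0: Jun from E12.5 to E14 (-0.0078 with DESeq2 size factors, -0.0930 without E12.5 replicate 1, -0.163 without E14 replicate 1 but 0.18 without E14 replicate 2, -0.000931 without P0 replicate 1), Ier2 from E12.5 to E14 (-0.048 without E12.5 replicate 1, -0.038 without E14 replicate 1, up to 0.24 without E12.5 replicate 2), Junb from E15.5 to E17 (-0.0058 without E15.5 replicate 2, 0.45 without E15.5 replicate 1), Arc from E17 to P0 (-0.0172 without E17 replicate 1, -0.0296 without P0 replicate 2, up to 0.53 without E17 replicate 2) and Ier2 from E17 to P0 (-0.0193 without P0 replicate 1, 0.30 without P0 replicate 2). Jund, added after the data were seen, also changed sign from E12.5 to P0 (-0.023 without P0 replicate 1, 0.95 without P0 replicate 2). Counts of members below include Fos, as do the 625 values. From E15.5 to E17, 0 were called without a filter, 0 with the replicate block and 4 with sample quality weights, against 1. Fitting only these stages gave 3. From E17 to P0, 0 were called when only these stages were fitted, against 3 (2 without Fos). From E12.5 to P0, 4 were called with sample quality weights, against 7 (6 without Fos). With these weights 6249 of 13484 genes were called. Fits of 2 stages have fewer samples, and the cause of the other changes was not tested. Leaving out 1 library gave 0 to 0, 3 to 4, 0 to 1, 2 to 3 and 5 to 7 members called in the 5 comparisons, and 5 to 7 across the stages. Junb lost its call from E12.5 to P0 with DESeq2 and with sample quality weights. DESeq2 also ended the call of Arc from E14 to E15.5, and sample quality weights that of Arc from E12.5 to P0.

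Same-numbered libraries deviated together (r over 0.1) in 5 of 10 pairs of stages, between -0.64 and 0.43 over 4559 genes, so the numbers were not taken as pairs. With the replicate block the call of Klf6 from E15.5 to E17 was lost (0.49, adjusted p = 0.0622), as was that of Junb across the stages. Calls over all genes ranged between settings from 0 to 1062, 2739 to 6502, 0 to 3717, 0 to 4419 and 6009 to 9185 in the 5 comparisons, and from 7236 to 10428 across the stages. For the other immediate early genes they ranged from 0 to 6, 14 to 22, 0 to 15, 0 to 19 and 18 to 30. These ranges count Egr3 and Dusp5, with which the main fit called 27 from E12.5 to P0, against 25 without them. For the upstream genes calls ranged from 0 to 6, 9 to 20, 0 to 10, 0 to 16 and 21 to 31. Scaling by total counts moved the median of all genes by 0.29 from E14 to E15.5, 0.11 from E17 to P0 and 0.53 from E12.5 to P0. Without P0 replicate 2, Fos and Egr3 failed the filter and gave no value. Depth limits Fos, Fosb, Npas4 and Nr4a1.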
